A study of Homo sapiens with 40 samples.

Results

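The 7 long noncoding RNAs MALAT1, NEAT1, TUG1, KCNQ1OT1, MIR17HG, OIP5-AS1 and CRNDE were followed through APEX2 proximity labelling of RNA in HEK293T cells, a transformed human embryonic kidney line. They were taken by name, 7 of the 57992 gene rows of the count table, and each had 1 row with counts. The name they were grouped under, nuclear long noncoding RNAs enriched over input in every arm, did not hold throughout: none of the 7 had a positive log2 fold change over input in all 9 arms, and OIP5-AS1 was recovered more with the cytosolic enzyme than at the lamina. They are therefore called the 7 RNAs here.

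APEX2 is a peroxidase that, given biotin-phenol and hydrogen peroxide, tags molecules close to it with biotin, and streptavidin then captures what was tagged. The enzyme was placed in the mitochondrial matrix (MITO), at the endoplasmic reticulum membrane facing the cytosol (ERM), in the cytosol (NES) or at the nuclear lamina as a fusion with lamin B1 (LMNB1). In the s6G and s4U arms the cells were fed 100 µM of the thionucleoside 6-thioguanosine or 4-thiouridine for 5 h. Labelling followed: biotin-phenol at 0.5 mM lasted 30 min, and peroxide at 1 mM lasted 1 min. The arm called RNA in the labels, here APEX only, had biotin-phenol and peroxide without a thionucleoside. The control arm, here unlabelled, had neither thionucleoside nor biotin-phenol and still received peroxide. Every arm was sequenced before (input) and after streptavidin capture (enriched), all cells carried a construct, and all libraries were polyA-selected. The matrix construct had all 4 arms, the lamina construct all but s4U, and the ER membrane and cytosol constructs s6G alone. There were 40 libraries in 18 groups of 2, except for 4 in each ERM group. The characteristics of 8 libraries titled s6G name s4U instead, and they were grouped by title. They are all 4 enriched ERM libraries, whose inputs name s6G in both places, and the inputs and enriched libraries of the LMNB1 s6G arm. Were the characteristics right, the ER membrane values over input would set s4U libraries against s6G inputs, and every lamina s6G value below would belong to s4U.

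Most of these RNAs are known to stay in the nucleus. MALAT1 sits in nuclear speckles, where splicing factors gather, NEAT1 is the scaffold of paraspeckles, and KCNQ1OT1 lies along the imprinted chromosome domain from which it is transcribed and represses genes there in cis. TUG1 and CRNDE are found in both compartments, MIR17HG is the host transcript of the miR-17-92 cluster and is cut by Drosha in the nucleus, and OIP5-AS1, known as cyrano in fish, is mainly cytoplasmic and carries a site for miR-7. How an RNA is recovered beside each enzyme was the question the design put to all of them.

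MIR17HG spans chr13:91347687-91354577 on the plus strand of GRCh38.p14, and its 6 microRNA hairpins lie within 787 bases. The mature strands mostly found from each hairpin are shown because MIR17HG, the member with the largest fold at the lamina, is their host; the polyA-selected libraries count the long transcript, and the microRNAs themselves were not measured. They are RefSeq sequences for GRCh38.p14, written 5′ to 3′ with bases 2 to 8, the seed that pairs with targets, in capitals, and ordered by shared seed.
miR-17-5p: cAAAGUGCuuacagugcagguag
miR-20a-5p: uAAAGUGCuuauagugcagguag
miR-18a-5p: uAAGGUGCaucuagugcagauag
miR-19a-3p: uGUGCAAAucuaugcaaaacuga
miR-19b-3p: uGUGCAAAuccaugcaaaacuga
miR-92a-3p: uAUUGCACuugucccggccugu
The 6 carry 4 different seeds. miR-17-5p and miR-20a-5p share AAAGUGC, and miR-19a-3p and miR-19b-3p share GUGCAAA.

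The other 6 loci, also in GRCh38.p14, were MALAT1 at chr11:65497738-65506516, NEAT1 at chr11:65422798-65445540, KCNQ1OT1 at chr11:2608328-2699994, TUG1 at chr22:30969265-30979395, OIP5-AS1 at chr15:41282697-41313338 and CRNDE at chr16:54918863-54928886. RefSeq classes TUG1 as protein-coding and the others as long noncoding. KCNQ1OT1 lies wholly inside the gene KCNQ1 on the opposite strand, 7205 bases of MALAT1 are overlapped by the antisense gene TALAM1, and the 3′ end of OIP5-AS1 overlaps OIP5 by 4066 bases. Whether the counting used the strand is not stated by the labels or headers, so reads of these overlapping genes cannot be told apart.

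Total counts ranged from 3514076 to 12602028 in the 20 inputs and from 2720817 to 14496768 in the 16 labelled enriched libraries. The 4 unlabelled enriched libraries were shallower, at 123341 and 842177 counts for MITO and 1492243 and 3876715 for LMNB1. LMNB1 mRNA reached 2340 to 6728 CPM (counts scaled to a common library total) in the LMNB1 libraries against 77.8 to 339.9 elsewhere. The HEK293T markers VIM, KRT8, NEFM, NEFL and INA had counts in all 40 libraries, KRT18 in all but 1, and of 7 markers of blood, liver and muscle PTPRC was the highest, at 13.1 CPM at most. Libraries of the matrix construct had 26.3% to 58.2% mitochondrially encoded counts after capture in the labelled arms, so levels are given as scaled CPM, with TMM factors, which correct for a few abundant RNAs, over all 40 libraries.

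Levels of different genes can be compared only per length. Counts are per gene and come from polyA-selected libraries, so isoforms were not told apart. How far the selection lowered the level of any of these RNAs was not tested. The authors' deposited table gives log2(TPM + 1) for the matrix arms, TPM being a level per transcript length, with replicates combined; for MALAT1 its input values were 7.49 to 7.61. Taken off the log scale each column summed to 2000000, so the values were divided by 2 here to stand for 1 library. On that computed scale MALAT1 was highest in the MITO inputs at 89.6 to 97.2 TPM in the 4 arms, followed by TUG1 at 54.0 to 82.4 TPM. MIR17HG at 21.5 to 44.8 TPM, OIP5-AS1 at 15.8 to 30.2 TPM and NEAT1 at 12.9 to 26.8 TPM overlapped each other. CRNDE at 3.22 to 3.57 TPM and KCNQ1OT1 at 0.91 to 1.19 TPM were the lowest. Together the 7 RNAs took 0.033% to 0.070% of the counts of an input. Their share was 0.10% and 0.17% in the 2 enriched lamina s6G libraries.

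**Figure D1:**
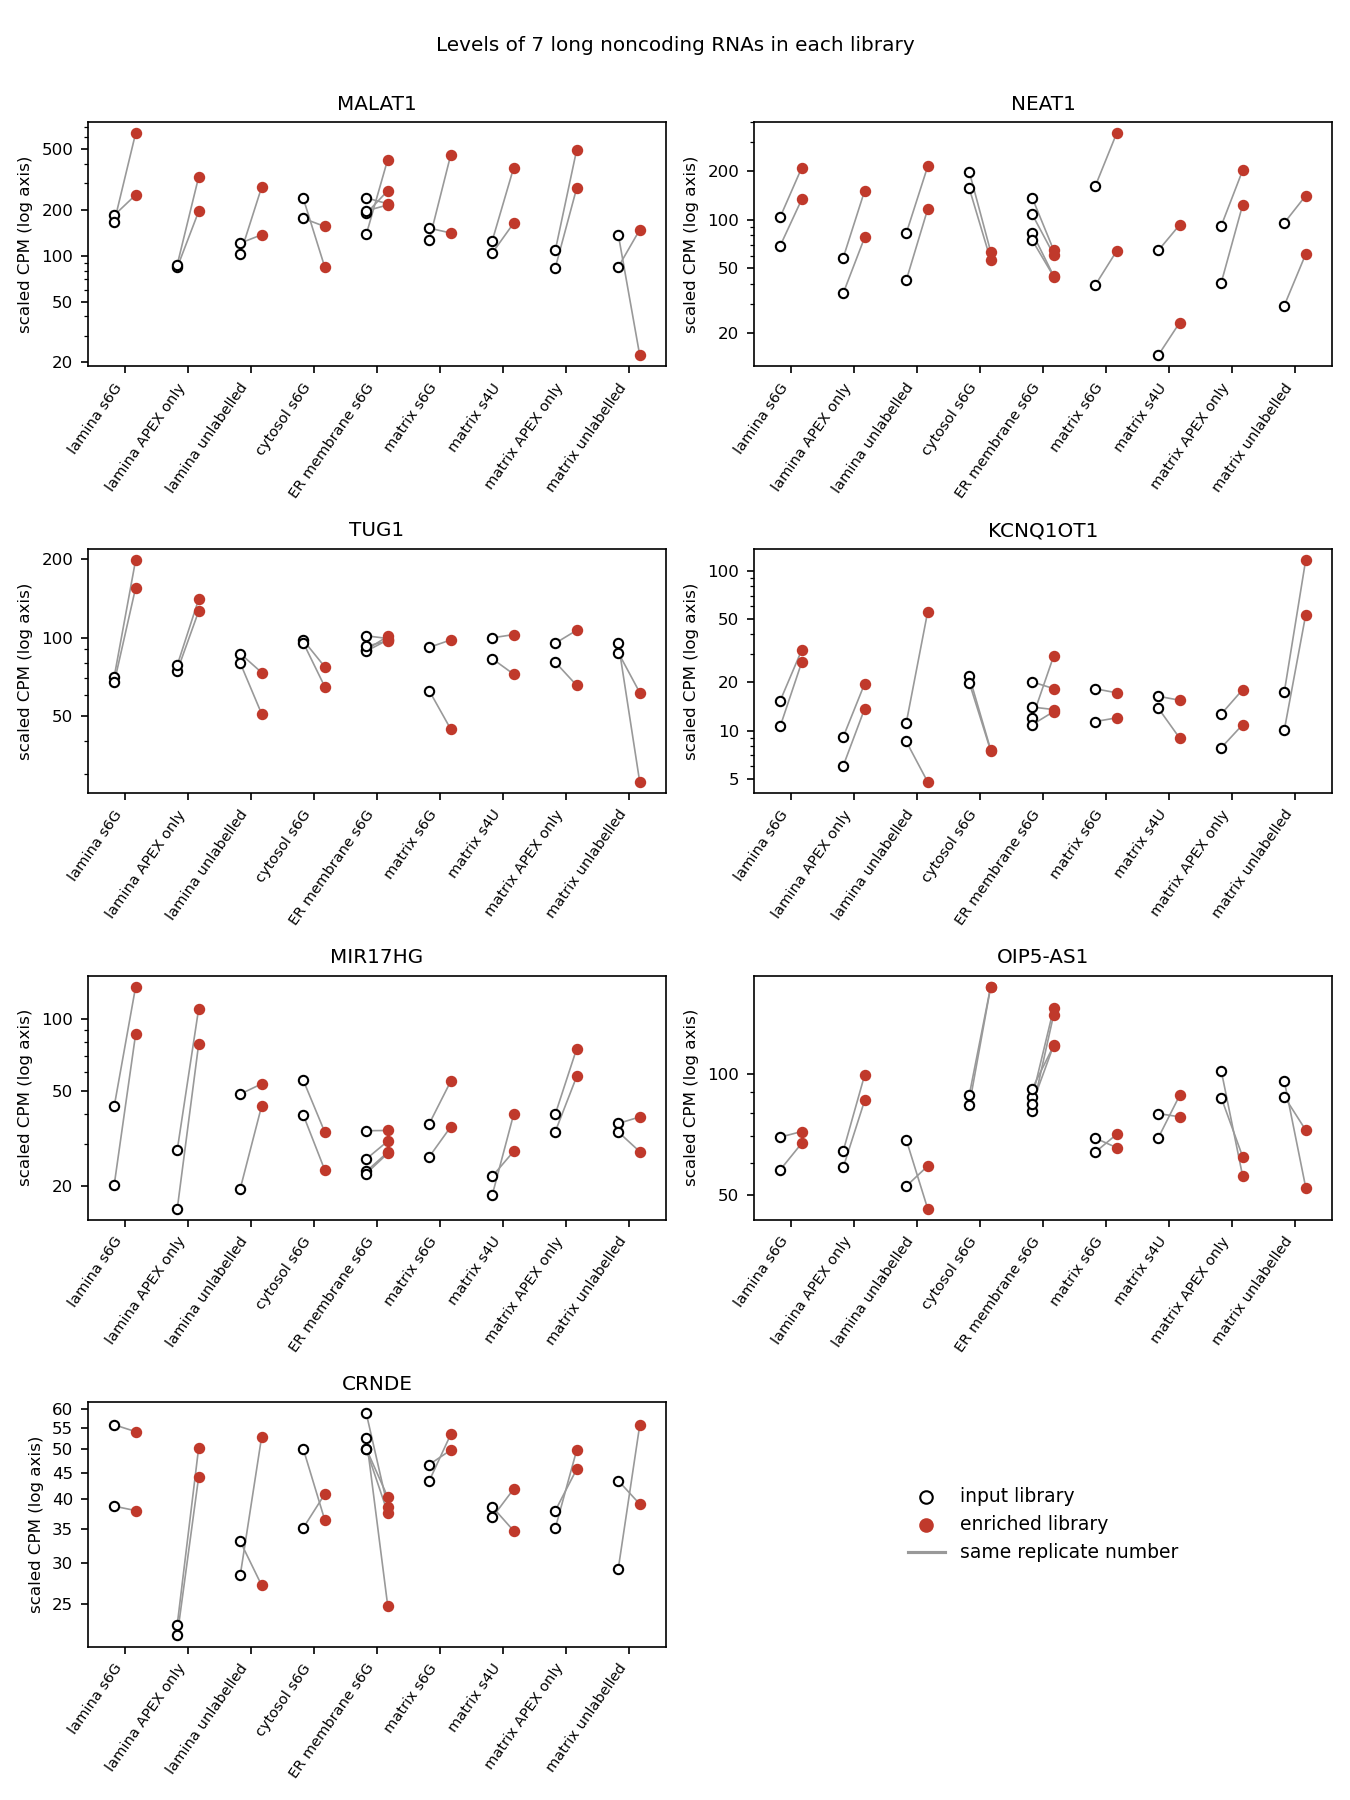
Scaled CPM (log axis) of each of the 7 RNAs in the input (open) and enriched (filled) libraries of 9 arms, 2 pairs per arm and 4 for the ER membrane; a line joins libraries with the same replicate number. All but CRNDE climb in each lamina s6G and APEX only pair. In the cytosol OIP5-AS1 climbs in both pairs, CRNDE moves in opposite directions, and the others drop in both.

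At the lamina with s6G, MIR17HG, MALAT1 and TUG1 were called higher after capture, and all 7 RNAs had positive log2 fold changes with a median of 1.31, against 0.13 for all genes. A gene was called when its adjusted p in edgeR's quasi-likelihood test was under 0.05; 5.37% of the 16525 genes tested were called higher and 7.64% lower. Of these calls 41.3% were higher, against 63.7% when libraries were scaled by total counts. The 7 RNAs were put together with enrichment already known. Folds over input, and the differences between arms built from them, are therefore given as a description, and nothing is read from their share of calls. In bulk libraries, fewer cells carrying an RNA and less of it per cell cannot be told apart.

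MIR17HG, the microRNA host, had 43.3 and 20.3 scaled CPM in the lamina s6G inputs and 137 and 86.9 in the enriched libraries, a log2 fold change of 1.95 ± 0.45 (SE, n = 2 per group). Both enriched libraries lay above both inputs, and the pairs gained 3.16- and 4.27-fold. TUG1, a transcript linked to repression by Polycomb proteins, had the smallest error of the 3: 70.8 and 67.2 scaled CPM before and 199 and 156 after capture, a log2 fold change of 1.50 ± 0.21. MALAT1, the speckle RNA, went from 184 and 167 to 251 and 638 scaled CPM, a log2 fold change of 1.52 ± 0.42. Its enriched libraries stood above both inputs but differed from each other by more than the lower of them differed from its input.

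NEAT1 had 69.1 and 104 scaled CPM before and 133 and 209 after capture at the lamina with s6G, a log2 fold change of 1.14 ± 0.43. Its pairs gained 1.93- and 2.01-fold although the replicates stood apart in level, and NEAT1 was called once each enriched library was compared with its own input (the replicate block, 18.9% of genes called in either direction). KCNQ1OT1, the imprinting RNA, had 15.4 and 10.7 before and 31.9 and 26.7 after, 1.31 ± 0.72, and was not called. OIP5-AS1 at 0.28 ± 0.22 and CRNDE at 0.10 ± 0.31 were flat: CRNDE had 55.8 and 38.7 scaled CPM in the inputs and 54.2 and 38.0 in the enriched libraries. The call of TUG1 held without any 1 of the 4 libraries. That of MALAT1 was lost without the second enriched library (log2 fold change 0.63), the first input (1.50) or the second input (1.31), and that of MIR17HG without the first enriched library (1.60) or the second input (1.38).

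Without a thionucleoside, at the lamina with APEX only, the 7 RNAs had log2 fold changes of 0.64 to 2.14. MIR17HG rose from 28.4 and 16.1 to 111 and 78.8 scaled CPM, a log2 fold change of 2.14 ± 0.45, and was the call among them, where 0.411% of genes were called higher and 1.02% lower (28.7% of the calls higher, against 65.9% on total counts). MALAT1 stood at 1.66 ± 0.42, NEAT1 at 1.33 ± 0.44, KCNQ1OT1 at 1.19 ± 0.73, CRNDE at 1.14 ± 0.31, TUG1 at 0.85 ± 0.21 and OIP5-AS1 at 0.64 ± 0.22. For each of the 7, both enriched libraries lay above both inputs. With 2 libraries on each side this is easily met, and its share over all genes was not computed. CRNDE, flat with s6G, went here from 21.7 and 22.7 to 44.2 and 50.4 scaled CPM. With the replicate block 5 of the 7 were called (4.08% of genes), and the call of MIR17HG was lost without any 1 of its 4 libraries, at log2 fold changes of 1.76 to 2.56. Between the s6G and APEX only arms no difference passed the threshold for the 7 RNAs or for any gene (0% called, edgeR): TUG1 differed by 0.65 ± 0.30 (edgeR adjusted p = 0.40, 95% interval 0.01 to 1.30) and CRNDE by -1.04 ± 0.44 (adjusted p = 0.36, interval -1.99 to -0.09). At an unadjusted p under 0.05 edgeR had 2 of the 7 and 12.2% of genes here, and DESeq2 called none of the 7 and 4.55% of genes.

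The unlabelled lamina arm gives what streptavidin captured without biotin-phenol. None of the 7 RNAs was called there by edgeR, where 0.0242% of genes were called higher and 0.0121% lower. At an unadjusted p under 0.05 it had 3 of the 7 and 17.3% of genes, and DESeq2 called NEAT1 and 2.67% of genes. The point estimates of NEAT1 and KCNQ1OT1 were above those of both labelled arms. NEAT1 had 42.3 and 82.5 scaled CPM before and 116 and 213 after capture, a log2 fold change of 1.49 ± 0.44, and was called with the replicate block (0.0303% of genes). MALAT1 stood at 1.01 ± 0.42 and MIR17HG at 0.62 ± 0.46. CRNDE at 0.51 ± 0.32, OIP5-AS1 at -0.09 ± 0.23 and TUG1 at -0.34 ± 0.22 were nearer 0. KCNQ1OT1 averaged 1.66 ± 0.75 but its enriched libraries disagreed, at 55.4 and 4.77 scaled CPM against inputs of 11.2 and 8.55, and it passed the threshold without the second of them (2.57). The lower of these rests on 20 counts of 3876715.

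TUG1 was the member called between the labelled lamina and its unlabelled control. Its enriched libraries held 199 and 156 scaled CPM with s6G and 73.3 and 50.8 when unlabelled, from inputs of 70.8, 67.2, 86.8 and 79.7. The difference in enrichment was 1.84 ± 0.31 on the log2 scale (edgeR adjusted p = 0.017), where 2.69% of genes were called in either direction (56.0% of them higher, against 79.9% on total counts). It kept its size but not its call without the second enriched s6G library (2.02), the second s6G input (1.86), or the first (1.88) or second (1.96) unlabelled input, with adjusted p-values from 0.051 to 0.099. With the compared groups alone in the fit it stood at 1.86 with an adjusted p of 0.098, and no gene was then called. MIR17HG differed by 1.34 ± 0.63 (adjusted p = 0.25) and MALAT1 by 0.50 ± 0.58 (0.68). NEAT1, KCNQ1OT1, OIP5-AS1 and CRNDE had differences of -0.35, -0.34, 0.37 and -0.41, each with a 95% interval that includes 0; KCNQ1OT1 turned to 0.35 with the replicate block. With APEX only in place of s6G edgeR called no gene against the unlabelled arm (0%; 3 of the 7 and 10.6% of genes had an unadjusted p under 0.05, and DESeq2 called 1 of the 7 and 0.841% of genes), TUG1 differed by 1.19 ± 0.30 (adjusted p = 0.26) and MIR17HG by 1.53 ± 0.63 (0.44). TUG1 passed without the first unlabelled enriched library (1.48, adjusted p = 0.040) and in DESeq2 (1.19, adjusted p = 0.029).

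**Figure D2:**
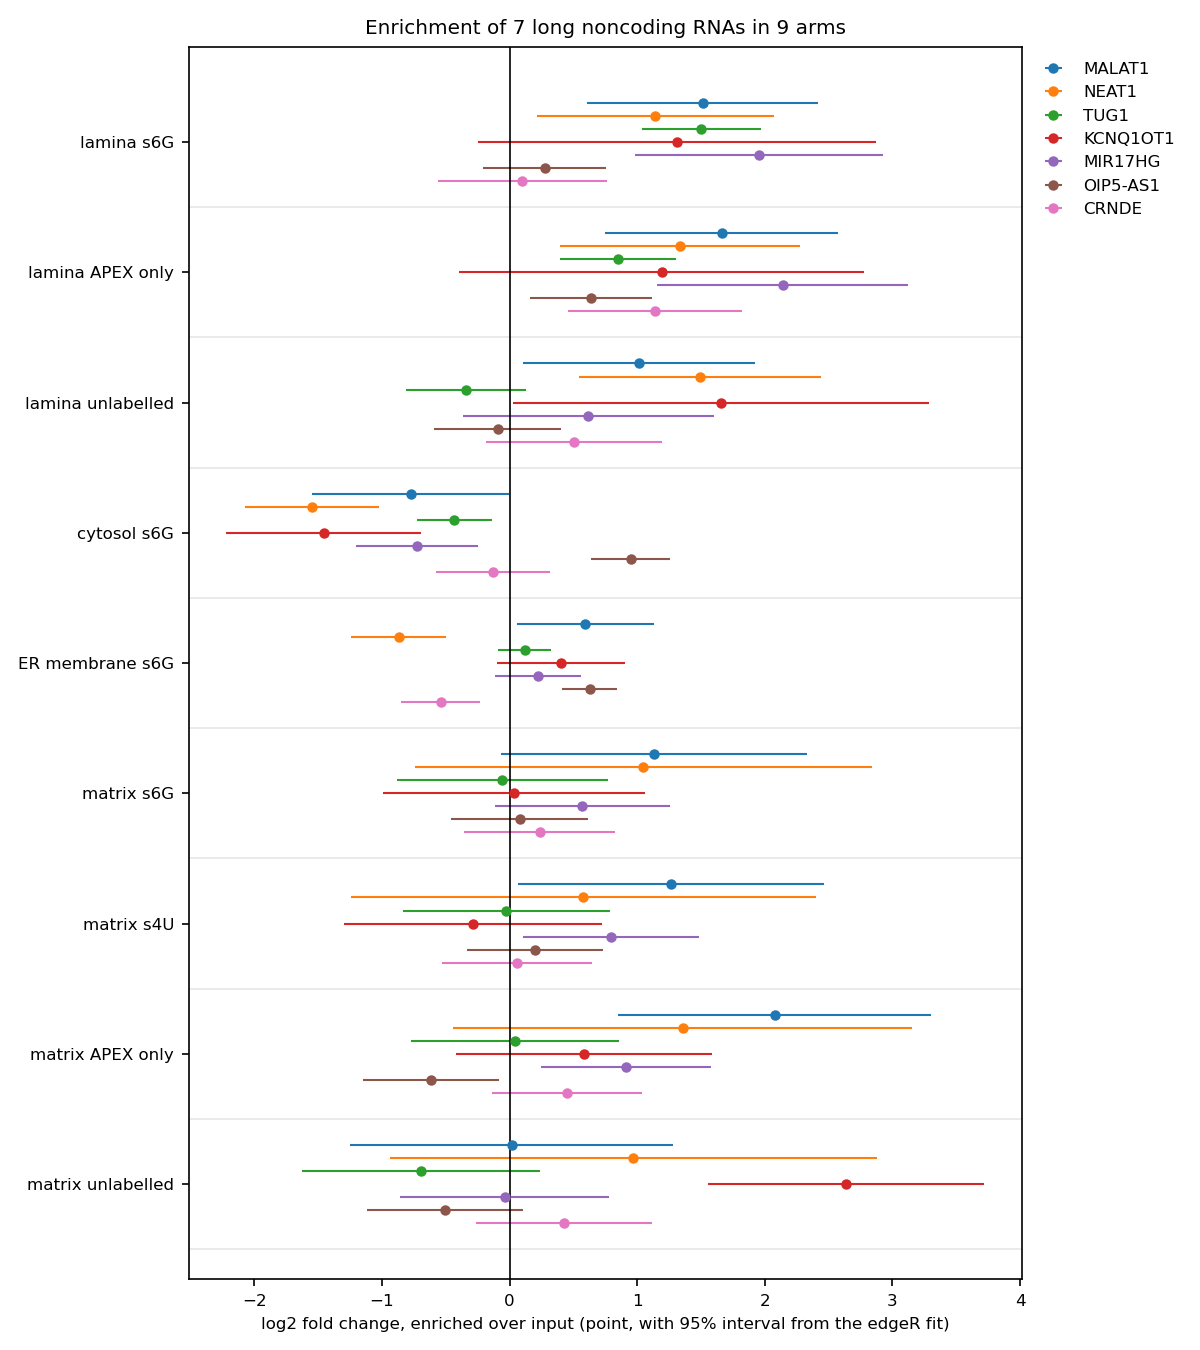
Log2 fold change of enriched over input for the 7 RNAs in each of 9 arms, as points with 95% intervals from the edgeR fit. In the cytosol 6 of the 7 points lie below 0 and OIP5-AS1 lies above it at 0.95, while at the lamina with s6G all 7 points are above 0.

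Beside the cytosolic enzyme OIP5-AS1 and CRNDE, the lowest of the 7 at the lamina with s6G, had the highest log2 fold changes. OIP5-AS1 was called higher after capture, and NEAT1, KCNQ1OT1, MIR17HG and TUG1 were called lower, where 28.7% of 15619 genes were called higher and 26.4% lower; the median of the 7 was -0.72 against 0.01 for all genes. OIP5-AS1 had 88.6 and 83.5 scaled CPM in the inputs and 165 in each enriched library, a log2 fold change of 0.95 ± 0.15. NEAT1 fell from 198 and 156 to 63.4 and 56.3 scaled CPM, -1.55 ± 0.25, and KCNQ1OT1 fell from 21.8 and 20.0 to 7.59 and 7.48, -1.46 ± 0.36. The enriched and input libraries of these 3 did not overlap, and neither did those of MIR17HG, TUG1 and MALAT1. The share of all genes without overlap was not computed.

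MIR17HG fell in the cytosol from 55.6 and 39.8 to 33.8 and 23.4 scaled CPM (-0.72 ± 0.23) and TUG1 from 97.7 and 95.5 to 77.2 and 64.8 (-0.43 ± 0.14). Both RNAs kept their direction in both pairs. Their calls rested on single libraries: TUG1 lost its call without the second enriched library (-0.29), the first input (-0.41) or the second (-0.40), as well as without the low-count filter (-0.37, adjusted p = 0.15), and MIR17HG without the second enriched library (-0.46) or the first input (-0.46). MALAT1 had 238 and 176 scaled CPM in the inputs and 84.6 and 156 after capture, -0.77 ± 0.36, with no call unless the second enriched library was left out (-1.26). CRNDE, at -0.13 ± 0.21, moved in opposite directions in its pairs.

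Set against each other, the lamina and cytosol s6G arms separated 6 of the 7 RNAs. The difference in log2 fold change was 2.66 ± 0.51 for KCNQ1OT1 (edgeR adjusted p = 0.00037), 2.57 ± 0.43 for MIR17HG (0.00011), 2.56 ± 0.85 for NEAT1 (0.028), 2.15 ± 0.68 for MALAT1 (0.021) and 1.82 ± 0.34 for TUG1 (0.00026), all higher at the lamina. OIP5-AS1 was lower at the lamina by 0.79 on the log2 scale, a difference of -0.79 ± 0.24 (0.012), and CRNDE differed by 0.12 ± 0.33 (0.81, 95% interval -0.56 to 0.80). Of 16139 genes, 15.4% were called higher at the lamina and 19.2% lower (44.4% of the calls higher, against 60.5% on total counts), and the median of the 7 was 2.15 against -0.03 for all genes. Each of the 5 RNAs gained in both lamina pairs and dropped in both cytosol pairs. The arms come from different constructs, so the place of the enzyme and the experiment cannot be told apart.

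KCNQ1OT1, MIR17HG and TUG1 kept their lamina-over-cytosol call in each of the 15 alternative fits. OIP5-AS1 lost its call on scaling by total counts (-0.53, adjusted p = 0.21) and without the low-count filter (-0.88, 0.056). MALAT1 lost it with the replicate block (2.05, adjusted p = 0.13, where 48.5% of genes were called), without the filter (2.05, 0.13), and without the second enriched lamina library (1.22), the first (2.11) or second (1.96) lamina input, the first enriched cytosol library (1.76) or the first cytosol input (1.81). NEAT1 lost it without the filter (2.47, 0.12) and without any 1 of 7 of the 8 libraries, at differences of 2.10 to 2.78; it kept it without the first enriched lamina library (2.84, adjusted p = 0.045).

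**Figure D3:**
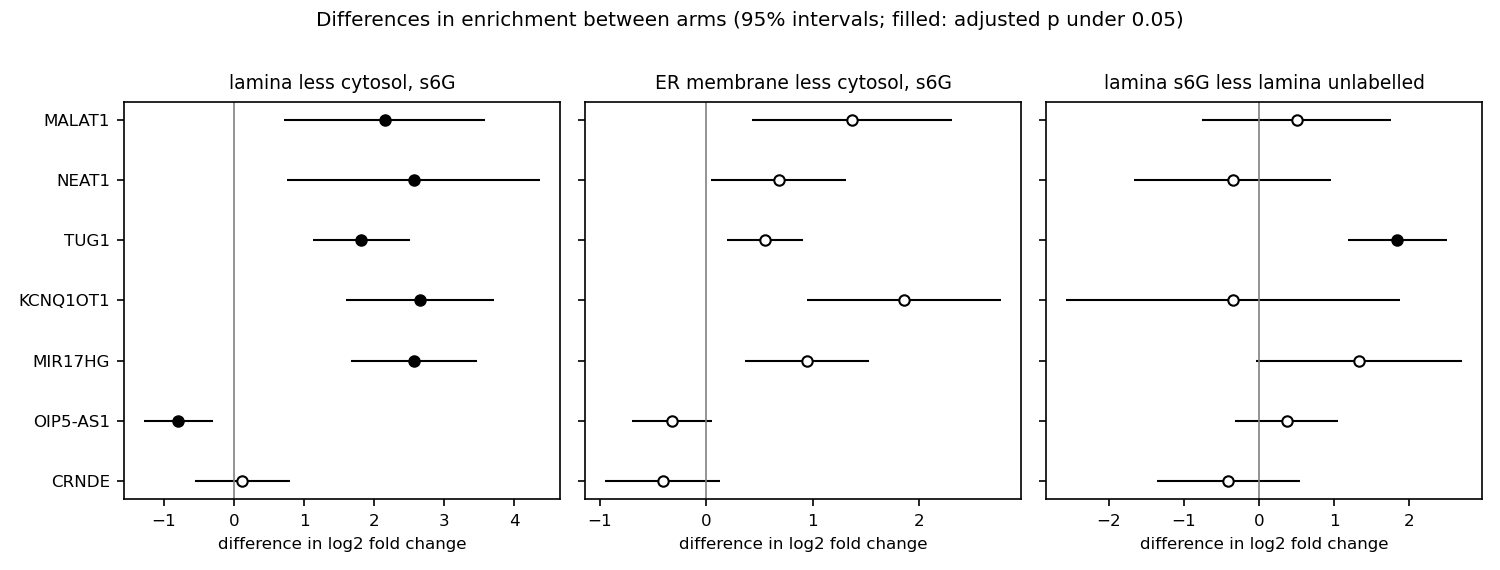
Differences in log2 fold change between arms for the 7 RNAs, with 95% intervals; filled points have an edgeR adjusted p under 0.05. Lamina less cytosol (left) has 6 filled points, ER membrane less cytosol (middle) none, and lamina s6G less unlabelled (right) TUG1 alone at 1.84.

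The lamina was also compared with the mitochondrial matrix, a compartment closed off by its own membranes, with s6G in both. TUG1 was more enriched at the lamina by 1.47 ± 0.35 (edgeR adjusted p = 0.019), where 3.88% of genes were called in either direction. MIR17HG differed by 1.31 ± 0.45 (0.096) and KCNQ1OT1 by 1.19 ± 0.54 (0.21), and both were called with the replicate block (1.38 and 1.24, adjusted p = 9.5e-05 and 0.030, where 19.6% of genes were called). MALAT1 at 0.30 ± 0.68, OIP5-AS1 at 0.12 ± 0.24, NEAT1 at 0.03 ± 0.85 and CRNDE at -0.20 ± 0.34 were near 0. TUG1 lost its call without the second enriched matrix library (1.00), the first matrix input (1.15), or the first (1.51) or second (1.43) lamina input, and with the compared groups alone (1.50, adjusted p = 0.27, where 0.169% of genes were called), and MIR17HG gained one without the first lamina input (1.94). Scaling by total counts raised the median of all genes in this comparison by 1.17 and called 6 of the 7 RNAs higher, TUG1 and CRNDE (0.96) included; on that scale 99.3% of the calls over all genes were higher, against 29.9% on the main scale.

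At the ER membrane, which faces the cytosol and is continuous with the nuclear envelope, OIP5-AS1 was called higher and NEAT1 and CRNDE lower, where 34.3% of genes were called higher and 28.9% lower. OIP5-AS1 rose in all 4 pairs, from 80.9 to 91.9 scaled CPM in the inputs to 118 to 146 in the enriched libraries, a log2 fold change of 0.63 ± 0.10 (SE, n = 4 per group). NEAT1 fell in all 4, from 74.6 to 136 down to 44.6 to 64.7 scaled CPM (-0.87 ± 0.17), and CRNDE fell from inputs of up to 58.8 to 24.8 to 40.4 in the enriched libraries (-0.54 ± 0.15). For these 3 RNAs the enriched and input libraries did not overlap. The share of all genes without overlap was not computed.

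MALAT1 at the ER membrane stood at 0.59 ± 0.25, with inputs of 138, 189, 197 and 240 scaled CPM and enriched libraries of 427, 267, 215 and 219, and the first pair had the largest gain, 3.10-fold. KCNQ1OT1, likewise highest in the first enriched library at 29.3 scaled CPM against 13.2 to 18.3 in the other 3, stood at 0.40 ± 0.24. MIR17HG was at 0.22 ± 0.16 and TUG1, the steadiest, at 0.12 ± 0.10. MALAT1 was called without enriched library 3 (0.71) or 4 (0.70), and KCNQ1OT1 without the second input (0.59). Scaling by total counts raised the median of all genes by 0.31 and called 5 of the 7 higher and 1 lower, CRNDE losing its call at -0.24; over all genes the share of calls that were higher went from 54.3% to 67.9%.

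Between ER membrane and cytosol no difference passed the threshold in edgeR for the 7 RNAs, and 0.0064% of genes, a single gene, were called. At an unadjusted p under 0.05 it had 5 of the 7 and 13.9% of genes, and DESeq2 called KCNQ1OT1 and 2.23% of genes. KCNQ1OT1 had the largest difference, 1.86 ± 0.43 (edgeR adjusted p = 0.11), followed by MALAT1 at 1.37 ± 0.44 (0.21), MIR17HG at 0.95 ± 0.28 (0.16), NEAT1 at 0.68 ± 0.30 (0.32) and TUG1 at 0.55 ± 0.17 (0.17), all higher at the ER membrane. OIP5-AS1 at -0.32 ± 0.18 (0.44) and CRNDE at -0.41 ± 0.26 (0.50) leaned the other way. The 95% interval of KCNQ1OT1 ran from 0.95 to 2.77 and that of TUG1 from 0.19 to 0.91. With the replicate block 4 of the 7 were called higher at the ER membrane, KCNQ1OT1 (1.81, adjusted p = 0.011), MIR17HG (0.96, 0.0076), NEAT1 (0.70, 0.013) and TUG1 (0.56, 0.032), where 6.1% of genes were called.

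Beside the matrix enzyme edgeR called none of the 7 RNAs in the labelled arms. At an unadjusted p under 0.05 it had 2 of the 7 and 6.93% of genes with s4U, 3 of the 7 and 8.86% with APEX only, and none of the 7 but likewise 8.86% of genes with s6G, and DESeq2 called MALAT1 and 2.22% of genes with APEX only. With s6G 0.29% of genes were called higher and 0.0264% lower, with s4U 0.112% and 0%, and with APEX only 0.251% and 0.0198%. MALAT1 had the largest estimates, 1.13 ± 0.57 with s6G, 1.27 ± 0.57 with s4U and 2.08 ± 0.58 with APEX only. In the last it had 83.4 and 108 scaled CPM before and 278 and 497 after capture. NEAT1 stood at 1.05 ± 0.85, 0.58 ± 0.86 and 1.36 ± 0.85, and MIR17HG at 0.57 ± 0.32, 0.80 ± 0.33 and 0.91 ± 0.32. KCNQ1OT1 was at 0.04 ± 0.48, -0.29 ± 0.48 and 0.58 ± 0.47. TUG1, OIP5-AS1 and CRNDE lay between -0.62 (OIP5-AS1, APEX only) and 0.45 (CRNDE, APEX only). On scaling by total counts, which lowers the median of all genes by 0.87 with s6G and 0.73 with APEX only, NEAT1 (-0.06), MIR17HG (-0.26) and KCNQ1OT1 (-0.80) with s6G, and KCNQ1OT1 (-0.14) and CRNDE (-0.28) with APEX only, turned negative. Over all genes 1.35% of the calls with s6G were then higher, against 91.7% on the main scale, with APEX only 2.65% against 92.7%, and with s4U 14.4% against 100%.

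NEAT1 varied more between replicates than between input and enriched libraries in the s6G and s4U arms of the matrix. Its inputs held 39.5 and 161 scaled CPM with s6G, 14.6 and 64.5 with s4U, and 91.8 and 40.9 with APEX only, and the enriched libraries of the same replicates held 64.1 and 342, 23.2 and 92.9, and 202 and 124. Each of these 6 pairs gained, by 1.44- to 3.02-fold, and its input and enriched libraries overlapped in level in the s6G and s4U arms. With the replicate block NEAT1 was called with s6G (0.96, where 6.82% of genes were called) and with APEX only (1.43, 7.15% of genes), the latter together with MIR17HG (0.91). The labels do not say what set the replicates apart.

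Against APEX only in the matrix, neither the s6G nor the s4U arm had a difference that passed the threshold for the 7 RNAs or any gene (0% in both, edgeR; 371 and 415 genes at an unadjusted p under 0.05, and 2 and 2 called by DESeq2). With s6G the differences ran from -0.95 ± 0.79 for MALAT1 to 0.69 ± 0.36 for OIP5-AS1, and with s4U from -0.87 ± 0.67 for KCNQ1OT1 to 0.82 ± 0.36 for OIP5-AS1, all with edgeR adjusted p-values rounding to 1.

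KCNQ1OT1 stood out in the unlabelled matrix arm, where it was the member called higher and 5.78% of genes were called higher and 4.09% lower. It had 17.5 and 10.1 scaled CPM in the inputs and 117 and 53.1 in the enriched libraries, a log2 fold change of 2.64 ± 0.51. The depth behind this was small: 21 of 123341 counts and 57 of 842177. These are 170 CPM (95% Wilson interval 111 to 260) and 67.7 CPM (52.2 to 87.7), against 17.8 (14.1 to 22.5) and 11.6 (8.80 to 15.4) in the inputs, and the intervals cover counting error only. The call was lost without the first (3.04) or second (2.19) input. NEAT1 stood at 0.97 ± 0.90 and was called with the replicate block (0.83, where 20.5% of genes were called), MALAT1 at 0.02 ± 0.60, MIR17HG at -0.04 ± 0.39 and TUG1 at -0.69 ± 0.44. These RNAs had still fewer counts in the first enriched library: 11 for NEAT1, 4 for MALAT1, 7 for MIR17HG and 5 for TUG1. MALAT1 turned to -0.10 without the low-count filter, and MIR17HG to 0.19 on total counts and 0.18 with RLE scaling, which raised the median of all genes by 0.20 and 0.22. On total counts 84.6% and with RLE scaling 75.2% of the calls over all genes were higher, against 58.6%.

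Against this unlabelled arm, KCNQ1OT1 was lower by 2.60 on the log2 scale with s6G (-2.60 ± 0.70, edgeR adjusted p = 0.080), by 2.92 with s4U (-2.92 ± 0.69, 0.071) and by 2.05 with APEX only (-2.05 ± 0.69, 0.17). Over all genes 0.376%, 0.264% and 0.0396% were called in these 3 comparisons. With the replicate block KCNQ1OT1 was called in all 3 (adjusted p = 0.00031, 3.6e-05 and 0.0058, where 10.4%, 10.6% and 6.96% of genes were called). It was also called without the second unlabelled enriched library with s6G (-3.10, 0.030) and s4U (-3.41, 0.025). MALAT1 differed by 1.11 ± 0.82, 1.25 ± 0.82 and 2.06 ± 0.82. Without the second unlabelled enriched library the last became 4.35. That value rests on 4 MALAT1 counts in the first such library, against 159 in the second. With s6G MALAT1 turned to -0.10 on total counts. On total counts 2.97% (s6G) and 16.9% (s4U) of the calls over all genes were higher, against 73.7% and 72.5%, and with APEX only as many were higher as lower, against 83.3% higher.

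Before capture edgeR called none of the 7 RNAs between s6G and APEX only inputs of the matrix (0.0528% of genes called) or the lamina (0.127%), or between s4U and APEX only (0%, with 583 genes at an unadjusted p under 0.05 and 7 called by DESeq2). In the lamina inputs edgeR had 2 of the 7 and 11.5% of genes at an unadjusted p under 0.05, and DESeq2 called CRNDE (1.13, adjusted p = 0.044) and 1.75% of genes. There 85.7% of the calls were higher, against 66.7% on total counts. The largest differences were in the lamina inputs, where CRNDE was at 55.8 and 38.7 scaled CPM with s6G and 21.7 and 22.7 with APEX only (1.10 ± 0.32, edgeR adjusted p = 0.22). MALAT1 there differed by 1.05 ± 0.42 (0.36) and NEAT1 by 0.90 ± 0.44 (0.46). NEAT1 passed with a block on the replicate number across arms (0.92, edgeR adjusted p = 0.029, where 1.46% of genes were called). Whether equal numbers in different arms belong together was not tested. TUG1 differed by -0.13 ± 0.21 (0.88). In the matrix the differences ran from -0.47 ± 0.25 (OIP5-AS1) to 0.62 ± 0.84 (NEAT1) with s6G and from -0.85 ± 0.32 (MIR17HG) to 0.58 ± 0.47 (KCNQ1OT1) with s4U.

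Other RNAs of the same compartments give the surroundings of these values. Of 31 further nuclear long noncoding RNAs 17 were tested between lamina and cytosol, and 4 were higher and 1 lower at the lamina (median 0.86). GABPB1-AS1 (2.54) and MIR503HG, a microRNA host like MIR17HG (2.68), had differences as large as those of the 7. SLC25A25-AS1 (1.99) and HOTAIRM1 (1.48) were also higher, and DLEU1 was lower (-1.37), a call lost under both other scalings. NORAD, a cytoplasmic RNA that binds PUMILIO proteins, was lower at the lamina by 1.55 on the log2 scale (-1.55 ± 0.28), in the direction of OIP5-AS1. The list of 12 cytoplasmic long noncoding RNAs did not follow it as a whole: of 10 tested 3 were higher, among them the snoRNA hosts GAS5 (1.28), SNHG6 (1.63) and ZFAS1 (1.72), and 1 lower (median 0.39).

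The mRNAs of 21 nuclear speckle proteins were compared because MALAT1 lies in speckles. At the lamina with s6G 11 were called higher and none lower (median 0.80), led by NKTR (1.80) and by CLK1 (1.70) and CLK4 (1.70), kinases of splicing factors. Between lamina and cytosol 11 were higher, NKTR among them (2.60), and 2 lower, SON being one (-1.12); on total counts 12 were higher and none lower. Of 19 tested mRNAs of paraspeckle proteins, the partners of NEAT1, 5 were higher and 1 lower (median 0.34), the latter being NUDT21 (-1.82). Of 19 abundant cytosolic mRNAs none was called higher and 14 lower at the lamina with s6G (median -1.23), but 18 were also lower in the cytosol (median -1.12) and 18 at the ER membrane (median -1.53). Between lamina and cytosol 4 of them were lower (median -0.08). Of the 6 HEK293T markers 3 were lower at the lamina and 4 between lamina and cytosol. Background shares are those given above for the same comparisons, and these lists, too, were drawn up with earlier results known.

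**Figure D4:**
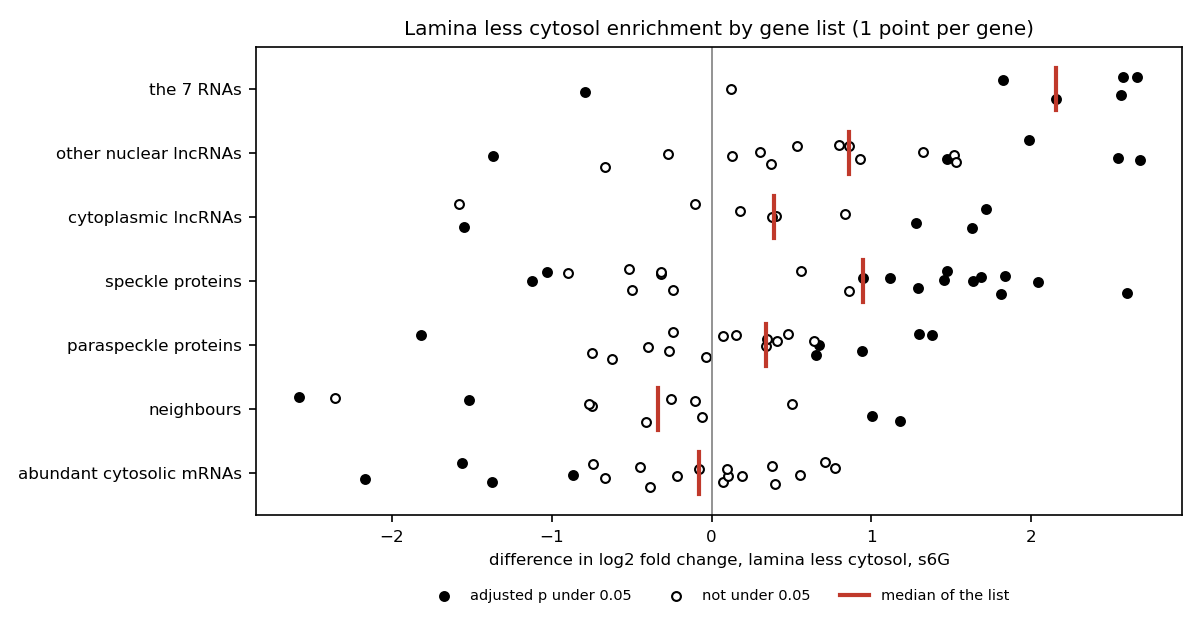
Difference in log2 fold change, lamina less cytosol with s6G, for each tested gene of 7 lists (1 point per gene, filled where the edgeR adjusted p is under 0.05) with the median of each list as a red bar. The median of the 7 RNAs is 2.15, those of speckle protein mRNAs and other nuclear long noncoding RNAs are 0.94 and 0.86, and neighbours lie around -0.33.

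Of 12 tested neighbours 2 were higher and 2 lower between lamina and cytosol, where 15.4% of all genes were called higher and 19.2% lower. The neighbours are thus near the shares of all genes. CRNDE, with no call between lamina and cytosol, lies 1978 bases from IRX5, a homeobox gene, and both IRX5 (-1.52 ± 0.51) and IRX3 (-2.58 ± 0.73) were lower at the lamina. OIP5 differed by -0.06 ± 0.44 where its antisense partner OIP5-AS1 was lower.

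TUG1 and MORC2, a chromatin-remodelling ATPase, start 491 bases apart and are transcribed away from each other. MORC2 was higher at the lamina than in the cytosol by 1.01 ± 0.27 (edgeR adjusted p = 0.0060) and TUG1 by 1.82 ± 0.34. The window from 250 bases before the TUG1 start to 50 bases after it, chr22:30969015-30969314 on the plus strand of GRCh38.p14 (RefSeq), is shown since both neighbours were called higher, as were 15.4% of genes. These values are differences in capture over input, and transcription from the window was not tested. Capitals mark CACGTG and CCAAT on either strand.
TUG1: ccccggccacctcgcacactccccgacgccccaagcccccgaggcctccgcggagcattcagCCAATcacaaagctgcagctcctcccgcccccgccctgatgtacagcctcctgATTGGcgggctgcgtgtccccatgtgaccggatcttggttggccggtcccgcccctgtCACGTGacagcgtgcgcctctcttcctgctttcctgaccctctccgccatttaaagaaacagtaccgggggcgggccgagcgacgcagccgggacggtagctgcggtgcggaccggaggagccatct
The window holds 1 CACGTG and 2 CCAAT matches, the second read on the minus strand as ATTGG. Of 35116 promoter windows of this length 7.26% hold CACGTG and 34.6% hold CCAAT. A match is a description of the letters and not a bound site.

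The 7 RNAs did not share 1 pattern over the 9 arms. Pearson's r between members was taken over the 9 log2 fold changes, which share scaling within a fit. It ran from -0.68 for NEAT1 and OIP5-AS1 to 0.86 for TUG1 and MIR17HG. MALAT1 stood at 0.83 with MIR17HG and at 0.75 with NEAT1. Among 7976 genes the patterns most like that of MALAT1 belonged to LAMC1 (0.97), SUN1 (0.96) and CCDC150 (0.96). Those most like NEAT1 belonged to EVL (0.99), THOC1 (0.99) and GOLGA8B (0.99), and those most like the mean of the 7 to RP6-24A23.8 (0.99), TM2D1 (0.98) and TTC14 (0.98). Likeness in r does not mean likeness in level: LAMC1 was at -0.42 at the lamina with s6G where MALAT1 was at 1.52.

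In the authors' deposited table for the lamina, the s6G log2 fold changes were 1.79 for MIR17HG, 1.34 for TUG1, 1.32 for MALAT1, 1.15 for KCNQ1OT1, 0.97 for NEAT1, 0.11 for OIP5-AS1 and -0.06 for CRNDE. They stood in nearly the order found here and somewhat lower. The authors' deposited table gives NEAT1 an adjusted p of 0.017 and KCNQ1OT1 one of 0.020, both without an edgeR call here. It also lists MALAT1 (0.0036), TUG1 (5.2e-05) and MIR17HG (9e-05). For APEX only the authors' deposited table has log2 fold changes of 2.10 for MIR17HG, 1.62 for MALAT1 and 1.30 for NEAT1. CRNDE had 1.10 and TUG1 0.81 there, and the adjusted p-values of all these went up to 0.0029. In the same table KCNQ1OT1 had 1.15 (adjusted p = 0.083) and OIP5-AS1 0.60 (0.0504). MIR17HG alone was called here by edgeR. DESeq2, which the submitters' processing notes list, called 6 of the members here with APEX only and 4 with s6G. Of all genes it called 6.25% and 18.8%. The authors' deposited table of ER membrane over cytosol gave 1.35 for KCNQ1OT1, 1.30 for MALAT1, 0.53 for TUG1, 0.12 for MIR17HG, -0.07 for CRNDE, -0.10 for NEAT1 and -0.28 for OIP5-AS1. Its unadjusted p-values were 6.8e-05 for KCNQ1OT1, 0.0076 for MALAT1, 0.00054 for TUG1 and between 0.075 and 0.73 for the other 4 in the authors' deposited table. NEAT1 there is opposite in sign to the difference of 0.68 found here, and MIR17HG is below the 0.95 found here. The values are close to the plain log2 ratio of mean scaled CPM in the enriched libraries, 1.30, 1.23, 0.48, 0.07, -0.13, -0.16 and -0.34 in the same order, which takes no account of the inputs.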

How the data were processed

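The libraries were aligned and counted by the authors; the tools listed in the submitters' processing notes are HTSeq (0.7.2), HISAT2 (2.1.0), DESeq2, deepTools (2.5.3) and SAMtools. No source used here gives the strand setting. The deposited gene table holds raw read counts. The authors also deposited log2(TPM + 1) values of the matrix arms with replicates combined, and tables of log2 fold changes, p-values and mean normalized counts, whose unit here is a signal never below 0. The comparison tables were quoted; the TPM values were taken off the log2 scale and divided by 2, because each column then summed to 2000000. MALAT1 was matched by its Ensembl identifier.

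Counts were fitted with edgeR 4.0.16 (limma 3.58.1, R 4.3.3): TMM scaling, filterByExpr, robust quasi-likelihood tests, Benjamini-Hochberg adjustment over all tested genes and a threshold of 0.05, in 4 fits (16 matrix, 12 ER and cytosol, 12 lamina and 20 s6G libraries, with 15151, 15619, 16525 and 16139 genes). ± is the standard error of the fit. Precision follows depth, which was lowest in the unlabelled enriched libraries. Scripts were tested on simulated data. Alternatives were RLE scaling, total counts, no filter, a filter of 50 counts in 2 libraries, DESeq2 1.42.0, the compared groups alone, the replicate block and leaving out each library. Between inputs the block was the replicate number, taken as shared across the arms of a fit. The series' text ties each enriched library to the input of the same biological replicate, so numbers pair them; their deviations correlated with r from 0.06 to 0.60, although ER membrane replicates 1 (0.234 against 0.240) and 3 (0.173 against 0.228) correlated better with a library of another number. The main fit does not use this pairing. Its p-values set a fold against a spread estimated over all groups of a fit and moderated across genes.

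Named genes were all members, up to 3 called genes of each list with the largest change in the lamina s6G, lamina unlabelled, cytosol or ER membrane comparison (mean log2 CPM of at least 2), and the 3 genes most like MALAT1, NEAT1 or the members' mean (mean log2 CPM of at least 4). OIP5 was named after its values were seen. The members and lists were chosen with earlier results of these data known.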

Additional observations from a re-analysis of the deposited data

Results flagged for a closer look

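Enrichment of 6 of the 7 RNAs differed between the lamina and the cytosol with s6G. Of all tested genes 15.4% were called higher at the lamina there and 19.2% lower. The log2 differences were 2.66 for KCNQ1OT1, 2.57 for MIR17HG, 2.56 for NEAT1, 2.15 for MALAT1, 1.82 for TUG1 and -0.79 for OIP5-AS1. These differences, and those of TUG1 below, are built from folds known when the RNAs were put together, so they are a description. TUG1 also differed between the s6G and unlabelled arms of the lamina, by 1.84 (2.69% of genes called). Between lamina and matrix with s6G it differed by 1.47 (3.88% of genes called). Both TUG1 calls were lost with the compared groups alone (1.86 and 1.50), and those of MALAT1, NEAT1 and OIP5-AS1 between lamina and cytosol were lost without the low-count filter (2.05, 2.47 and -0.88). The 4 libraries of each ER membrane group were searched for a library far from the other 3, in 14 sets of values, and none stood out by Dixon's test at the 95% level.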

How the results depend on the processing

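Most values kept their direction and their side of the threshold: of 735 member values recomputed under 7 other settings 634 did, 9 lost and 74 gained a call, and 18 changed sign; of 648 with a library left out 565 did, 36 lost and 10 gained a call, and 37 changed sign. Every value that changed sign had no call in the main fit, and the cause was not tested where no construction of the setting shows it.

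Counts of the 7 RNAs called moved as follows, with the share of all tested genes called under that setting in brackets. With the replicate block, main counts of 0 became 4 for ER membrane less cytosol (6.1%), 2 for matrix APEX only (7.15%), and 1 each for matrix s6G (6.82%), lamina unlabelled (0.0303%), matrix s6G, s4U and APEX only less unlabelled (10.4%, 10.6% and 6.96%) and the lamina inputs (1.46%). Lamina less matrix went from 1 to 3 (19.6%), lamina APEX only from 1 to 5 (4.08%), matrix unlabelled from 1 to 2 (20.5%), lamina s6G from 3 to 4 (18.9%) and lamina less cytosol from 6 to 5 (48.5%); the block changed no call beyond those given in the report. In DESeq2, lamina APEX only went from 1 to 6 (6.25%) and lamina s6G from 3 to 4 (18.8%), and 0 became 1 for ER membrane less cytosol (2.23%), lamina APEX only less unlabelled (0.841%), matrix s6G and s4U less unlabelled (3.95% and 3.87%), lamina unlabelled (2.67%), matrix APEX only (2.22%) and the lamina inputs (1.75%). Without the low-count filter, lamina less cytosol went from 6 to 3 (13.8%), cytosol from 5 to 4 (24.2%), lamina less matrix from 1 to 2 (1.63%), lamina s6G less unlabelled from 1 to 2 (2.37%), lamina APEX only from 1 to 5 (0.976%), lamina s6G from 3 to 5 (5.88%) and lamina unlabelled from 0 to 2 (0.948%), and 0 became 1 for ER membrane less cytosol (0.306%), lamina APEX only less unlabelled (0.22%), matrix s6G, s4U and APEX only less unlabelled (1.5%, 1.36% and 0.54%), matrix APEX only (0.2%) and the lamina inputs (0.524%). With the compared groups alone, lamina less matrix (0.169%) and lamina s6G less unlabelled (0%) went from 1 to 0, lamina APEX only from 1 to 5 (9.31%), lamina s6G from 3 to 5 (22.7%), matrix APEX only from 0 to 1 (0.57%), ER membrane from 3 to 4 (64.1%) and cytosol from 5 to 6 (65.9%). The stricter filter took lamina APEX only from 1 to 2 (2.37%). Total counts took ER membrane from 3 to 6 (65.5%), ER membrane less cytosol from 0 to 2 (1.54%), lamina less matrix from 1 to 6 (38.2%), lamina less cytosol from 6 to 5 (30.2%), lamina APEX only from 1 to 2 (1.05%), and from 0 to 1 matrix APEX only (7.46%) and matrix s6G and s4U less unlabelled (8.23% and 0.389%). RLE scaling moved none of these counts.

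Signs changed as follows. On total counts these values changed sign: NEAT1 -0.058, MIR17HG -0.26 and KCNQ1OT1 -0.80 in matrix s6G; CRNDE -0.28 and KCNQ1OT1 -0.14 in matrix APEX only; MIR17HG 0.19 in matrix unlabelled; MALAT1 -0.10 in matrix s6G less unlabelled; CRNDE 0.96 in lamina less matrix. MIR17HG in matrix unlabelled was also 0.16 in DESeq2, 0.18 with RLE scaling, 0.13 with the compared groups alone and 0.24 with the stricter filter. MALAT1 there was -0.10 without the filter. NEAT1 in lamina less matrix was -0.019 in DESeq2 and -0.065 without the filter, OIP5-AS1 in lamina unlabelled was 0.0028 with the stricter filter, and KCNQ1OT1 with the block was 0.35 in lamina s6G less unlabelled and 0.21 in lamina APEX only less unlabelled.

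With 1 library left out, where a group of 2 then has a lone sample assumed to vary like the others, the counts of RNAs called ran from 3 to 5 in the cytosol, 1 to 2 in lamina s6G, 0 to 0 in lamina APEX only, 0 to 1 in matrix unlabelled, lamina unlabelled, the 3 matrix arms less unlabelled, lamina APEX only less unlabelled and lamina less matrix, and 0 to 2 in lamina s6G less unlabelled. Values that changed sign ran, in matrix s6G, from -0.60 to 2.36 for NEAT1 and -0.30 to 0.42 for KCNQ1OT1; in matrix s4U, -0.70 to 2.02 for NEAT1 and -0.69 to 0.088 for KCNQ1OT1; in matrix unlabelled, -2.28 to 0.50 for MALAT1 and -0.25 to 0.19 for MIR17HG. CRNDE ran from -0.35 to 0.19 in the cytosol, -0.26 to 0.32 in lamina s6G, -0.11 to 0.85 in lamina unlabelled, -0.76 to 0.20 in lamina s6G less unlabelled, -0.28 to 0.30 in lamina less cytosol and -0.47 to 0.081 in lamina less matrix. In lamina unlabelled KCNQ1OT1 ran from -0.97 to 2.57, MIR17HG from -0.066 to 1.20 and OIP5-AS1 from -0.43 to 0.031. In lamina s6G less unlabelled MALAT1 ran from -0.35 to 1.11, NEAT1 from -0.87 to 0.17 and KCNQ1OT1 from -1.27 to 2.27, the last from -1.41 to 2.14 with APEX only. In lamina less matrix MALAT1 ran from -0.55 to 1.31, NEAT1 from -1.32 to 1.61 and OIP5-AS1 from -0.018 to 0.26, and NEAT1 in the matrix s6G inputs from -0.73 to 1.29.

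Counts over all genes moved by more than 1.5 times in most arms of 2 replicates over the 7 settings, such as 48 called in matrix s6G (0 to 2815), 1496 in matrix unlabelled (131 to 3421), 237 in lamina APEX only (145 to 1317), 6 in lamina unlabelled (0 to 441), 445 in lamina s6G less unlabelled (0 to 1413), 1 in ER membrane less cytosol (1 to 952) and 626 in lamina less matrix (24 to 6159). Those of lamina less cytosol (5579, from 4875 to 7820), ER membrane (9870, from 9010 to 10420) and cytosol (8612, from 8062 to 9338) moved less. Depth limits the unlabelled enriched libraries most, where KCNQ1OT1 rests on 20 to 96 counts. In the first of them for the matrix KCNQ1OT1 had 21 counts. The other members had fewer there, from 4 for MALAT1 to 13 for OIP5-AS1.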
